A study of Homo sapiens with 12 samples.

Results

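The 7 genes described here encode structural proteins of the cardiac sarcomere and the intercalated disc: ACTN2, LDB3, NEBL, MYOM1, DES, CRYAB and GJA1. They were chosen by name, and their values were read from the gene count rows of all 12 libraries of the study. Of the 7 genes, 6 had a row in AC16 cells, among 15381 listed genes, and 3 had a row in AC16 exosomes, among 11973. ACTN2, CRYAB and GJA1 were listed in both compartments, LDB3, MYOM1 and DES in cells, and NEBL in neither. A gene without a row is called not listed here, because the lowest total of any listed gene was 7 reads over the 6 libraries of its compartment, in cells as in exosomes.

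The study sequenced RNA of AC16 cells labelled Ang, AC16 cells labelled Con, and the exosomes of each, with 3 libraries in each of the 4 groups. AC16 is a human cell line derived from a fusion of cardiomyocytes of the ventricle with virally transformed fibroblasts. Exosomes are vesicles that cells release. Ang and Con are not spelled out in the labels. Nothing in the labels says whether replicates were grown as separate cultures, and a p-value here therefore reflects the spread among libraries, which could be technical alone. Cells and exosomes were extracted and prepared with different kits in every library, so that compartment and kit cannot be told apart.

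In cardiac muscle the thin filaments of neighbouring sarcomeres are anchored at the Z disc, the thick filaments are crosslinked at the M band, and desmin filaments tie Z discs to each other and to the cell border. Intercalated discs join cardiomyocytes end to end through adherens junctions, desmosomes and gap junctions. Transcripts of the Z disc and M band genes are typical of differentiated striated muscle, whereas GJA1 is also used by many dividing cell types.

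Library depth set what could be seen. Cell libraries held 9202471 to 10623090 gene reads in Ang and 9442962 to 11212674 in Con. Exosome libraries held 535442 to 587783 gene reads in Ang and 717263 to 745311 in Con. Most markers of the cardiac contractile apparatus were at or near 0 in cells. Of 16 cardiomyocyte markers, 11 were listed in cells. ACTC1 and MYL3 had at most 5 and 8 reads in any cell library, TNNI3 had 8 to 20 and TTN 709 to 935. Of the markers outside the contractile apparatus, NKX2-5 and NPPB had at most 4 reads each. RYR2 had 6 to 18 reads, NPPA 10 to 26, PLN 17 to 45 and GATA4 239 to 335. TNNT2, the cardiac troponin T, had 0, 9 and 4 reads in Ang cells and 5, 0 and 0 in Con cells. TTN and GATA4 led the summed level of this list, which ranged from 112 to 128 CPM (reads on a per-million scale, with trimmed mean of M-values scaling) in Ang cells and from 110 to 115 CPM in Con cells. Only TTN and GATA4 were listed in exosomes. The label of a cardiomyocyte line thus stood beside few reads of most cardiac contractile markers. TTN had more reads, but CPM does not take gene length into account. Per kilobase of annotated exon, TTN averaged 0.664 CPM over the 6 cell libraries, below TNNI3 at 0.836. These were the 20.7 and the 23.1 percentile of genes listed in cells. All 13 fibroblast markers were listed in cells, with a summed level of 6141 to 7226 CPM in Ang and 7063 to 7567 CPM in Con, led by COL1A1 and VIM. All 7 smooth muscle markers were listed in cells, at 401 to 448 CPM in Ang and 424 to 470 CPM in Con, led by SMTN and TAGLN. All 5 epithelial markers were listed too, at 321 to 361 CPM in Ang and 345 to 366 CPM in Con, led by KRT18 and KRT8. Of 10 skeletal muscle markers 6 were listed, at 18.8 to 19.9 CPM in Ang and 19.1 to 23.4 CPM in Con. The part of these cell type programmes in the values below was not tested. In bulk RNA, fewer cells of a type and less RNA per cell cannot be told apart.

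GJA1 carried most of the reads of the group. GJA1 encodes connexin 43, the main gap junction protein of the working ventricle, and lies on chromosome 6 from 121435577 to 121449727 on the forward strand (GRCh38, ENSG00000152661). It held 99 of 134 member reads in exosomes (73.9%) and 3500 of 4158 in cells (84.2%). Per kilobase of exon, its mean level over the 6 cell libraries was 17.0 ± 1.27 RPKM (SD), higher than that of 82.2% of listed genes. RPKM here is CPM divided by the kilobases of annotated exon.

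Reads of GJA1 could be shared with a processed pseudogene, GJA1P1, which has no row in either compartment. Of the 31-base words in GJA1 transcripts, 11.5% also occurred in GJA1P1, so that reads from there are ambiguous by sequence alone. The first 60 coding bases of GJA1 and the matching bases of GJA1P1 are shown to make the likeness visible. The capitals mark the 4 positions at which they differ, and over 1143 aligned bases the 2 sequences were 97.0% identical. The GJA1 stretch is chr6:121446848-121446907 on the forward strand and the GJA1P1 stretch is chr5:109052398-109052457 on the reverse strand, both on GRCh38 and read from GENCODE release 29 transcripts.
GJA1: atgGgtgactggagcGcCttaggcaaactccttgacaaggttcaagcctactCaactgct
GJA1P1: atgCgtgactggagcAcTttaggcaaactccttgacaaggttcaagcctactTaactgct

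The other listed members were far lower in cells. DES, the muscle intermediate filament protein desmin (chromosome 2, 219418377 to 219426739), came next at 1.18 ± 0.349 RPKM (SD, n = 6). GJA1 was 14.4-fold above DES, and the 6 libraries of these 2 genes did not overlap. MYOM1, which crosslinks myosin at the M band (chromosome 18, 3066807 to 3220108), averaged 0.557 ± 0.192 RPKM. ACTN2, the sarcomeric alpha-actinin of the Z disc (chromosome 1, 236686454 to 236764631), averaged 0.487 ± 0.123 RPKM. From DES downwards, each gene overlapped its neighbour in the order of levels. CRYAB, the small heat shock protein alpha B-crystallin, which protects desmin and other filaments (chromosome 11, 111908565 to 111923722), averaged 0.293 ± 0.143 RPKM. Its place depends on the length used. With the longest transcript as length, CRYAB averaged 0.794 RPKM, above MYOM1 (0.627) and ACTN2 (0.528). LDB3, a Z disc protein with PDZ and LIM domains, also called ZASP or Cypher (chromosome 10, 86668449 to 86736068), averaged 0.111 ± 0.0457 RPKM. These 5 genes stood between the 6.82 and the 27.0 percentile of listed genes, so that all were in the lower part of the cells' expressed range. CRYAB is uncertain, since 20.6% of its exon bases overlap HSPB2 and HSPB2-C11orf52 on the opposite strand, and use of strand in counting is not given in the sources used here. HSPB2 itself was not listed. The same overlap was 4.22% for DES and 1.17% for MYOM1, and 0.269% of the 31-base words of ACTN2 occurred in ACTN1.

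Most of the widely expressed relatives of these genes were much higher than the muscle forms. The non-muscle alpha-actinins ACTN1 and ACTN4 stood at 94.3 and 121 RPKM in cells, 193-fold and 247-fold above ACTN2, while the fast-muscle form ACTN3 stood at 0.136 RPKM. Vimentin (VIM), the intermediate filament of mesenchymal cells, stood at 393 RPKM, 334-fold above DES. The other filament proteins and linkers stood at 8.62 RPKM (SYNM), 12.9 RPKM (SYNC) and 123 RPKM (PLEC). Of the PDZ-LIM relatives of LDB3, PDLIM1 stood at 60.5 RPKM, PDLIM7 at 27.9 RPKM and PDLIM5 at 19.6 RPKM, while PDLIM4 stood at 5.11 RPKM, PDLIM2 at 1.73 RPKM and PDLIM3 at 0.539 RPKM. LASP1, a relative of NEBL in non-muscle cells, stood at 48.2 RPKM, and the giant muscle protein NEB at 0.195 RPKM. HSPB1, another small heat shock protein, stood at 197 RPKM, 672-fold above CRYAB, HSPB6 at 11.0 RPKM and BAG3 at 32.4 RPKM, whereas HSPB8 was not listed. The size of these folds depends on the length used. With the longest transcript as length, HSPB1 stood at 221 RPKM beside 0.794 for CRYAB, and ACTN1 at 214 RPKM beside 0.528 for ACTN2. Within the family of MYOM1, MYOM2 and MYOM3 stood lower than MYOM1, at 0.0290 and 0.125 RPKM, as ACTN3 stood lower than ACTN2. OBSL1, a cytoskeletal partner of MYOM1, stood at 5.52 RPKM, 9.91-fold above it. Among connexins, GJC1 (connexin 45) stood at 11.8 RPKM, GJA5 (connexin 40) at 0.307 RPKM and GJB2 (connexin 26) at 0.0940 RPKM, beside 17.0 RPKM for GJA1, and the junction scaffold TJP1 stood at 25.8 RPKM.

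**Figure D1:**
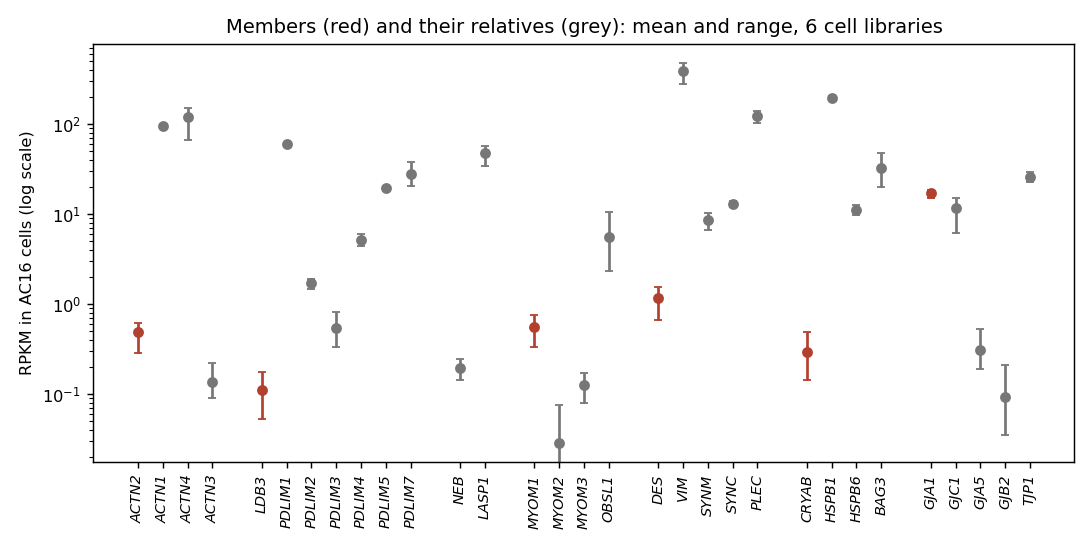
Level of each listed member (red) and its listed relatives (grey) in AC16 cells in RPKM on a log scale; points are means and bars the lowest and highest of 6 libraries, and the bar of MYOM2 runs off the axis because its lowest library was at 0. GJA1 at 17.0 RPKM is the highest red point, and ACTN2, DES and CRYAB lie more than 100-fold below ACTN1, VIM and HSPB1.

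Ang cells were compared with Con cells to see whether the structural transcripts differed with the label. No member passed an adjusted p of 0.05, and neither did any of the 13331 genes tested with edgeR's quasi-likelihood test (0%). At an unadjusted p under 0.05 there were 816 genes, and DESeq2 called 60 (0.45%). The filter on low counts (about 10 reads in each of 3 libraries) kept 4 of the 6 listed members: ACTN2, MYOM1, DES and GJA1.

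At the Z disc, ACTN2 had 29, 22 and 36 reads in Ang cells, against 29, 27 and 18 in Con cells. The ranges overlapped, with 1 library of Con the lowest of the 6. ACTN2 averaged 2.90 ± 0.652 CPM in Ang cells and 2.49 ± 0.784 CPM in Con cells (SD, n = 3 each). The log2 fold change was 0.23 (SE 0.318, 95% interval -0.56 to 1.01, edgeR adjusted p = 0.904), and without Con replicate 3 it was -0.02. LDB3 had 8, 5 and 10 reads in Ang cells, against 11, 6 and 4 in Con cells, and was under the filter. Both groups of LDB3 covered the same range of a few reads. NEBL, the nebulin-like protein nebulette of the cardiac Z disc, was not listed.

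At the M band, MYOM1 had 20, 24 and 46 reads in Ang cells, against 30, 48 and 56 in Con cells. The third Ang library lay inside the Con range and the other 2 lay below it. MYOM1 averaged 2.95 ± 1.19 CPM in Ang cells and 4.38 ± 1.03 CPM in Con cells (SD, n = 3 each). The log2 fold change was -0.56 (SE 0.338, 95% interval -1.40 to 0.27, edgeR adjusted p = 0.834). The interval takes in both no change and a halving of the transcript.

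Of the genes that tie the sarcomere to the cytoskeleton, DES had 15, 33 and 40 reads in Ang cells, against 36, 23 and 29 in Con cells. The sums were 88 reads in each group, and the ranges overlapped. Its log2 fold change was -0.01 (SE 0.364, 95% interval -0.91 to 0.88, edgeR adjusted p = 0.996). The value changed sign without Con replicate 1 (0.22) and without Ang replicate 1 (0.26). CRYAB had 4, 7 and 9 reads in Ang cells, against 14, 13 and 6 in Con cells, and was under the filter. Its groups overlapped through the third Con library. Fitted without the filter, CRYAB had a log2 fold change of -0.74 (SE 0.50, 95% interval -1.96 to 0.49), and LDB3 one of 0.12 (SE 0.534, 95% interval -1.19 to 1.43).

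GJA1 was the most precisely measured member, with 529, 557 and 555 reads in Ang cells, against 545, 613 and 701 in Con cells. After scaling these were 57.6, 54.6 and 52.1 CPM in Ang cells and 58.0, 63.3 and 62.4 CPM in Con cells. The groups did not overlap, by a narrow gap, a pattern that 6.89% of the genes tested shared in that direction (13.9% in either direction). The log2 fold change was -0.16 (SE 0.0726, 95% interval -0.34 to 0.02), with an unadjusted p of 0.07 and an edgeR adjusted p of 0.814. GJC1, the other connexin of this abundance, stood at 113, 125 and 130 CPM in Ang cells and 53.1, 89.1 and 105 CPM in Con cells. Its groups did not overlap either (7.01% of the genes tested in that direction), and its log2 fold change of 0.58 (SE 0.251) did not pass (edgeR adjusted p = 0.814).

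**Figure D2:**
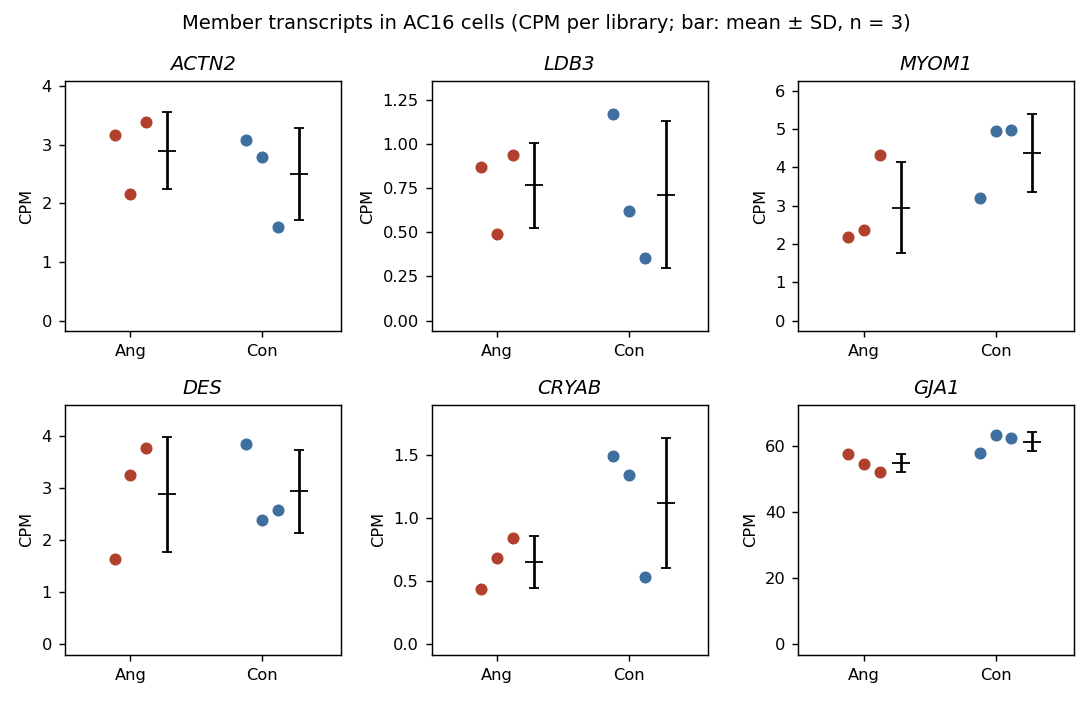
CPM of the 6 listed members in AC16 cells, with Ang left of Con; points are the 3 libraries of a group and the black marks the mean ± SD. The 3 Ang libraries of GJA1 lie at 52.1 to 57.6 CPM, just under the Con libraries at 58.0 to 63.3 CPM, and in the other 5 genes the groups overlap.

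No gene of the wider structural lists passed in cells. Of 56 further sarcomere genes, 44 were listed in cells and 26 tested, and none passed in either direction, with a median log2 fold change of 0.04 beside -0.00 over all genes. Of 33 further genes of the intercalated disc, 27 were tested and none passed (median -0.05). Of 11 genes of small heat shock proteins and chaperone-assisted autophagy, 7 were tested and none passed (median -0.07). The most abundant tested sarcomere genes were the tropomyosins TPM4, at a log2 fold change of -0.00 (SE 0.0341), and TPM3, at 0.09 (SE 0.0371). In the disc, the most abundant were PLEC, a linker of intermediate filaments, at -0.15 (SE 0.0941), and ITGB1, the beta-1 integrin, at -0.02 (SE 0.0314). In the chaperone list, the most abundant were HSPA8, a constitutive Hsp70, at -0.70 (SE 0.734), and FLNC, a filamin of the Z disc, at -0.36 (SE 0.142).

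**Figure D3:**
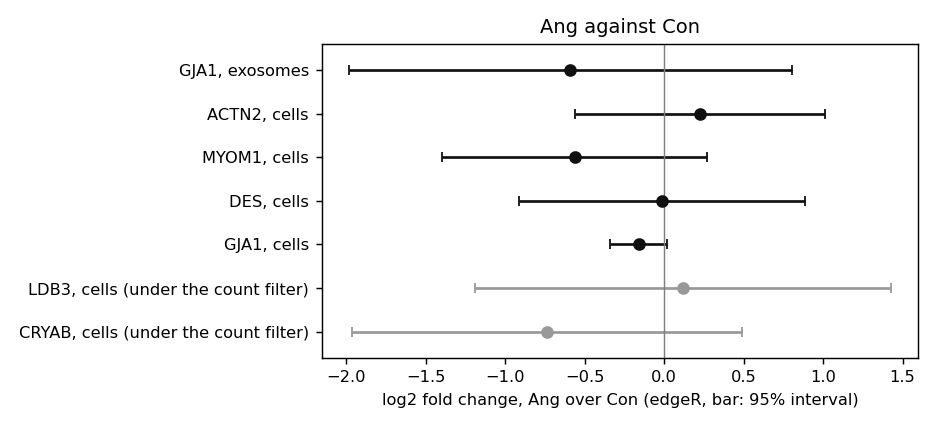
Log2 fold change of Ang over Con for the members, from edgeR, with 95% intervals; black points passed the filter on low counts and grey points were fitted without it. Every interval includes 0, and that of GJA1 in cells is the narrowest, from -0.34 to 0.02.

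Which members were listed in exosomes was read against depth. Of the 15381 genes listed in cells, 11940 were also listed in exosomes. The rule by which genes were listed is not given, so that the lowest listed total of 7 is not a known threshold. At their share of reads in cells, MYOM1 would have had 14.4 reads and DES 11.3 over all 6 exosome libraries. Both values are above 7, and both genes were not listed. LDB3 would have had 2.83 reads, under 7, so that its absence from the rows was not informative. CRYAB would have had 3.41 reads and had 10, of which 9 were in Ang replicate 1 and 1 in the other 5 libraries. ACTN2 would have had 10.4 reads and had 25. GJA1 would have had 225 reads and had 99.

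Ang exosomes were then compared with Con exosomes. Of the 3 listed members only GJA1 passed the filter, and it was not called. In all, 1 of 8327 genes passed in this comparison with edgeR (0.012%), 316 had an unadjusted p under 0.05, and DESeq2 called 16 (0.192%). GJA1 had 20, 6 and 7 reads in Ang exosomes, against 24, 28 and 14 in Con exosomes. The first Ang library lay inside the Con range and the other 2 below it. GJA1 averaged 19.8 ± 14.1 CPM in Ang exosomes and 29.8 ± 9.37 CPM in Con exosomes (SD, n = 3 each), a log2 fold change of -0.59 (SE 0.624, 95% interval -1.98 to 0.80, edgeR adjusted p = 0.999). Without Ang replicate 1 the log2 fold change was -1.35, and it did not pass either.

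ACTN2 had 3, 0 and 3 reads in Ang exosomes, against 7, 7 and 5 in Con exosomes. The groups did not overlap, as was the case in the same direction for 5.42% of the genes listed in exosomes. The ratio of Ang to Con was 0.415, with a 95% counting interval of 0.136 to 1.08, which covers counting error only and includes equal levels. The fit without the filter, which includes the spread among libraries, gave ACTN2 a log2 fold change of -1.20 (SE 1.45, 95% interval -4.33 to 1.93). CRYAB had 9, 1 and 0 reads in Ang exosomes and 0 reads in each Con library. With a floor of 3 reads in place of the Con sum, the ratio of Ang to Con for CRYAB was 4.38. This takes the 10 Ang reads as exact and is not a lower bound. Fitted without the filter, the 95% interval of its log2 fold change was -0.44 to 10.4, which includes no difference. Of the 10 reads, 9 came from 1 library. Without that library there was 1 read in Ang and no fold can be given.

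**Figure D4:**
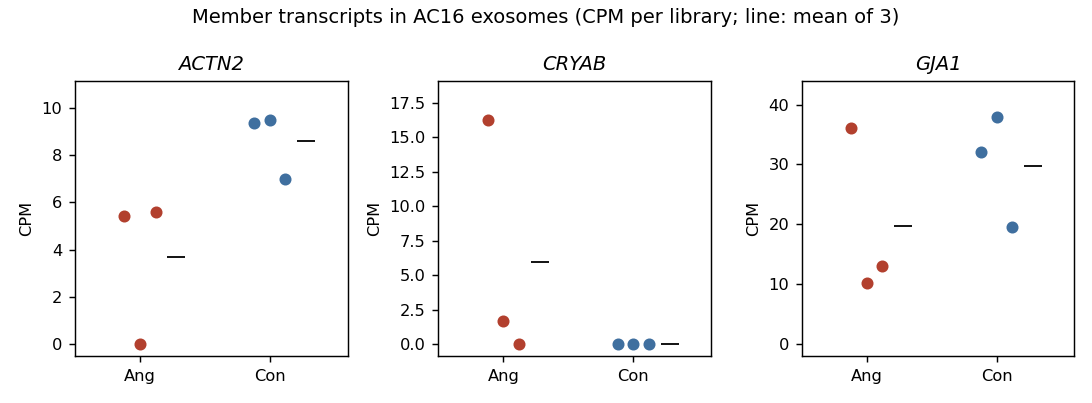
CPM of the 3 listed members in AC16 exosomes, with Ang left of Con; points are libraries and black lines the mean of 3. ACTN2 is lower in every Ang library than in any Con library, the CRYAB signal sits in Ang replicate 1, and GJA1 ranges from 10.2 to 36.0 CPM in Ang and from 19.5 to 37.8 CPM in Con.

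Exosomes were compared with cells over all 12 libraries and the 11811 genes tested of those listed in both compartments. GJA1 was lower in exosomes. On a scale common to the 12 libraries it stood at 38.7, 11.0 and 14.0 CPM in Ang exosomes and 34.4, 40.9 and 20.9 CPM in Con exosomes, against 53.7, 50.9 and 48.8 CPM in Ang cells and 53.9, 58.5 and 58.1 CPM in Con cells. All 6 exosome libraries lay below all 6 cell libraries, as did those of 13.1% of the genes tested. GJA1 was 2.07-fold lower (log2 -1.05, SE 0.270, 95% interval -1.63 to -0.46, edgeR adjusted p = 0.00931). Of the genes tested 37% were called, 2292 of them lower in exosomes (19.4%) and 2083 higher (17.6%). It did not pass within Con libraries alone (log2 -0.82, edgeR adjusted p = 0.0811) or Ang libraries alone (log2 -1.26, edgeR adjusted p = 0.0972), each with fewer libraries. Over all alternatives run, its adjusted p ranged from 3.37e-08 to 0.0972.

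ACTN2 lay on the other side. On the common scale it stood at 5.80, 0 and 6.0 CPM in Ang exosomes and 10.03, 10.2 and 7.48 CPM in Con exosomes, against 2.94, 2.01 and 3.17 CPM in Ang cells and 2.87, 2.58 and 1.49 CPM in Con cells. The compartments overlapped, because the Ang exosome library with no read lay below every cell library. The other exosome libraries lay above every cell library, with at most 7 reads each. The share of genes with such a pattern was not counted. The log2 fold change of ACTN2 was 1.25 (SE 0.531, 95% interval 0.10 to 2.40) and did not pass (edgeR adjusted p = 0.0830). It did pass in Con libraries alone (log2 2.0, edgeR adjusted p = 0.0370), without Ang exosome replicate 2 (log2 1.55, edgeR adjusted p = 0.0134) and with DESeq2 (log2 1.29, adjusted p = 0.00567), which called 22.5% of genes higher. It was 0.52 in Ang libraries alone, where its edgeR adjusted p was 0.712, the highest of the alternatives that gave a value. With any cell library left out, ACTN2 fell under the filter and gave no value. The filter sets its CPM cutoff from the median library size. Over 12 libraries, genes could therefore pass with fewer than 10 reads in an exosome library. Without a cell library the median is that of an exosome library, and the cutoff rises. The loss of ACTN2 therefore says nothing about the library left out. CRYAB was under the filter in this comparison.

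The Ang against Con change was also compared between compartments. For ACTN2 the difference, exosomes minus cells, was -1.48 on the log2 scale (SE 1.01, edgeR adjusted p = 0.766), and for GJA1 it was -0.45 (SE 0.542, edgeR adjusted p = 0.912). Leaving out 1 exosome library moved the value of ACTN2 between -1.93 (without Ang exosome replicate 3) and -0.89 (without Ang exosome replicate 2). Without a cell library ACTN2 was under the filter. Leaving out 1 library of either compartment moved the value of GJA1 between -1.22 (without Ang exosome replicate 1) and -0.14 (without Ang exosome replicate 2). Neither gene passed in any of these fits. With all libraries, 3 of 11811 genes passed with edgeR (0.0254%). The unadjusted p was under 0.05 in 968 genes, and DESeq2 called 368 (3.12%).

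The wider structural lists are described for exosomes against cells by their counts, and were not tested against each other or against other genes. Only genes listed in both compartments enter these counts. Of the 44 sarcomere genes listed in cells, 24 were also listed in exosomes, beside 11940 of 15381 over all genes. For the disc genes these were 25 of 31, and for the chaperone genes 7 of 8. Genes not listed in exosomes could not be counted as higher or lower. Of the 24 sarcomere genes tested, 10 were higher in exosomes (41.7%, beside 17.6% of all genes tested), 1 was lower (4.17%, beside 19.4%) and 13 did not pass, with a median log2 fold change of 0.29 beside -0.14 over all genes tested. Markers of other cell types moved in the same comparison. Of the smooth muscle markers 4 of the 6 tested were higher in exosomes and 2 lower, of the epithelial markers 2 of 3 were higher and none lower, and of the fibroblast markers 1 of 12 was higher and 5 lower. The part of these markers in the counts of the structural lists was not tested. TNNT1, the slow skeletal troponin T, was higher by 1.87 (SE 0.110, edgeR adjusted p = 8.92e-08). The tropomyosins TPM4 (0.95, SE 0.0599) and TPM1 (0.88, SE 0.0744) were also higher, with edgeR adjusted p of 1.56e-07 and 2.55e-06. TPM4 and TPM1 are also made by non-muscle cells. TTN, the giant spring protein titin, was the sarcomere gene that was lower, at -2.74 (SE 0.188, edgeR adjusted p = 3.61e-07).

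Of the 25 disc genes tested, 8 were lower in exosomes (32%, beside 19.4% of all genes tested), 3 were higher (12%, beside 17.6%) and 14 did not pass. Their median of -0.20 was close to the -0.14 over all genes. VCL, the actin linker vinculin, was lower at -1.29 (SE 0.116, edgeR adjusted p = 4.14e-06). ITGB1 (-0.69, SE 0.0849) and CTNNA1, the alpha-catenin of adherens junctions (-0.59, SE 0.0864), were lower too, with edgeR adjusted p of 5.64e-05 and 0.00022. FLNC, which is on all 3 lists, was higher at 1.19 (SE 0.103, edgeR adjusted p = 3.01e-06). GJC1, which forms gap junctions like GJA1, was lower at -0.99 (SE 0.221, edgeR adjusted p = 0.00398), close to the -1.05 of GJA1, and TJP1 did not pass at -0.50 (SE 0.190, edgeR adjusted p = 0.0548).

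Of the 7 chaperone genes tested, 4 were higher in exosomes (57.1%, beside 17.6% of all genes tested), none was lower (beside 19.4%) and 3 did not pass, with a median of 0.49 beside -0.14. Beside FLNC these were BAG3, a co-chaperone (0.79, SE 0.222, edgeR adjusted p = 0.0145), HSPB1 (0.42, SE 0.121, edgeR adjusted p = 0.0162) and the ubiquitin ligase STUB1 (0.99, SE 0.352, edgeR adjusted p = 0.0439). With library totals as the scaling only 1 of the 7 passed. That scaling moved the median of all genes by -0.21 and gave 1562 higher and 3262 lower genes, a share of higher calls of 32.4% beside 47.6%. Exon length moved with this comparison: over 11799 genes its rank correlation with the log2 fold change was -0.213 (Spearman, across genes, which are not independent), and the median exon length was 4333 bases in genes higher in exosomes and 6827 bases in genes lower there. GJA1 has 3413 exon bases and ACTN2 5530. The part of length in these differences was not tested.

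**Figure D5:**
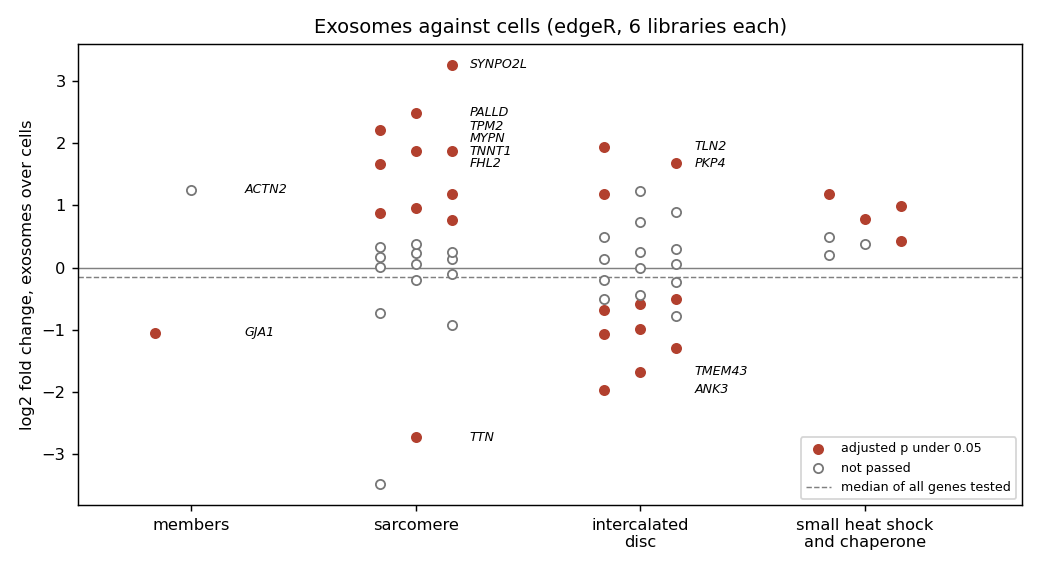
Log2 fold change of exosomes over cells for the members tested and for the tested genes of 3 structural lists; filled points passed an adjusted p of 0.05, the dashed line is the median of all genes (-0.14), and FLNC appears in each list. GJA1 lies at -1.05 and ACTN2 at 1.25; among sarcomere genes the passing points lie above 0 except TTN, and among disc genes 8 of 11 lie below 0.

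No gene of these lists passed between Ang and Con exosomes. There 18 sarcomere, 19 disc and 6 chaperone genes were tested, with medians of -0.04, -0.05 and -0.10 beside -0.00 over all genes. The most abundant of them were TPM2 at -0.33 (SE 0.204) and TPM4 at 0.12 (SE 0.0932), PLEC at -0.78 (SE 0.747), FLNC at 0.03 (SE 0.121) and HSPA8 at -0.07 (SE 0.174). The difference in the Ang against Con change between compartments passed in none of the 24 sarcomere, 25 disc and 7 chaperone genes tested, with medians of -0.12, 0.08 and -0.05 beside -0.02 over all genes. There TPM2 stood at -0.59 (SE 0.378), PLEC at -0.64 (SE 0.683), ITGB1 at -0.30 (SE 0.169) and FLNC at 0.37 (SE 0.203).

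Back-splice junctions, which mark circular RNAs, were also looked up at the 7 loci. No junction lay on a member's strand, among 939 circular RNAs listed in exosomes and 5179 in cells. A single junction on the opposite strand inside GJA1 had 3 reads, all in Con cell replicate 3. The lowest nonzero junction count in the files was 2, so that circular RNAs of these low transcripts were not detectable below that.

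The genes closest in pattern over the 12 libraries were found by the root mean square difference of log2 CPM, each gene centred on its own mean. For GJA1 they were NCOA2, at 0.156, and PARP8, at 0.194. For ACTN2 they were ARMCX1, at 0.437, and CXCL3, at 0.464. ACTN2 had 25 exosome reads in all and GJA1 99.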

How the data were processed

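The authors deposited whole-number read counts per Ensembl gene for each library and counts of reads across back-splice junctions for circular RNAs, per the file headers. GRCh38, HISAT2 and StringTie are named in the submitters' processing notes. How reads were counted, with which annotation and strand setting, and how circular RNAs were called is not given in the sources used here. Per the labels' protocols, cells were prepared with miRNeasy Micro and VAHTS Universal kits and exosomes with exoRNeasy Maxi and SMARTer Stranded kits. Counts were tested with edgeR 4.0.16 in R 4.3.3 (quasi-likelihood test with trimmed mean of M-values scaling, filterByExpr with a minimum count of 10 and total of 15, two-sided, Benjamini-Hochberg over all genes tested, threshold 0.05), within the 6 libraries of each compartment and, over 12 libraries, between compartments. DESeq2 1.42.0 was an alternative. Intervals are log2 fold change ± t × SE. Levels per length used exon unions of GENCODE release 29. The scripts were tested on simulated data. All listed members, fixed relatives, and up to 4 passing (otherwise the 2 most abundant) genes of each structural list were named. A further gene is not reported here. The members and lists were chosen with earlier results of these data known. Read sharing, the GJA1P1 sequences, length and non-overlap shares were examined after the members' values had been seen. Protein sequences were not used here. No 2 libraries of a group were alike within sampling noise.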

Additional observations from a re-analysis of the deposited data

How the results depend on the processing

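No call on a tested member in Ang against Con changed under any alternative that gave an adjusted p. DESeq2 gave none for ACTN2, MYOM1 and DES in cells. LDB3 and CRYAB in cells, and ACTN2 and CRYAB in exosomes, were under the filter and have values only from the fit without it. Ang against Con calls numbered 60 in cells with DESeq2; in exosomes they numbered 16 with DESeq2, 3 without the filter, 22 in a fit over all 12 libraries and 0 with the replicate block. Leaving out 1 library gave 0 to 3 calls in cells (3 without Con replicate 3), 1 to 4 in exosomes (4 without Ang replicate 1) and 1 to 17 for the difference between compartments (17 without Ang exosome replicate 1). That difference had 368 calls with DESeq2 and 1 with either replicate block. Exosomes against cells gave 2399 calls in Con alone and 2126 in Ang alone, fewer libraries each, and 3542 to 4534 without 1 library. Without 1 library, ACTN2 in cells ranged from -0.0197 (without Con replicate 3) to 0.41 and DES from -0.25 to 0.26. The cause of the other shifts was not tested.

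In exosomes against cells, lower sarcomere genes numbered 2 in Ang alone and 1 to 2 without 1 library. Higher disc genes numbered 7 with DESeq2 and 1 in Ang alone, and lower disc genes 5 in Con alone and 5 in Ang alone. Higher chaperone genes numbered 1 with library totals, 1 in Ang alone and 2 with the replicate block by label and number. With the longest transcript as length, CRYAB stood at 0.794 and GJA1 at 18.4 RPKM in cells. CRYAB then stood above MYOM1 and ACTN2, so that the order of these members and the folds against relatives depend on the length used.

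Whether replicate numbers pair the libraries is not stated. Log2 CPM was correlated between libraries after each gene's group mean was subtracted. Same-numbered libraries of the 2 labels then correlated between -0.0438 and -0.0157 in cells, and between -0.0171 and -0.00613 in exosomes. Those with different numbers correlated between -0.0134 and 0.0365 in cells, and between -0.00885 and 0.0248 in exosomes. Deviations within groups of 3 libraries cannot settle whether libraries were paired. The replicate block is given here only. The interval of the ACTN2 read ratio in exosomes covers counting error only. The floor for CRYAB stands in for the Con reads and leaves out the error of the Ang reads. Intervals of log2 fold changes include the spread among libraries. With few reads per library, differences of less than about the intervals given were not detectable for LDB3, CRYAB, MYOM1, DES and ACTN2.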
